A study of Mus musculus with 6 samples.

Results

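A set of 10 transporter genes, through which hepatocytes take up and release bile acids and other organic anions, was followed in male mouse liver after a choline- and folate-deficient (CFD) diet. They were chosen by name, as every array spot that is not a control and carries the symbol of a member, with Osta and Ostb read as the older names of Slc51a and Slc51b. All 10 genes were found, on 14 of the 41174 probes of the array, and 9 of them could be tested among 15904 genes. Liver RNA from 3 CFD diet samples and 3 control samples was labelled with Cy3 and hybridised, one sample to an array, to Agilent mouse arrays. The mice were male C57BL/6J, an inbred laboratory strain, put on a diet at 8 weeks of age and killed 12 weeks later at 20 weeks. The CFD diet had 0.17% methionine and lacked choline and folic acid. The control diet was the same amino acid-defined base with methionine at 0.4%, choline bitartrate at 0.3% and folic acid at 2 mg/kg, so both groups received the iron supplement of that base. The labels do not say that each sample was a separate mouse, so each p-value rests on sample-to-sample spread that could be technical.

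Bile acids are made in hepatocytes, secreted into bile across the canalicular membrane, taken back from the gut and cleared from portal blood across the sinusoidal, or basolateral, membrane. Sodium-coupled uptake runs through NTCP (Slc10a1), and sodium-independent uptake of bile acids and many other anions through the OATP carriers (Slco genes). BSEP (Abcb11) and MRP2 (Abcc2) pump bile salts and conjugated anions into the canaliculus, whereas MRP3 (Abcc3), MRP4 (Abcc4) and the heteromeric exporter of the Slc51a and Slc51b products return them to blood. When bile flow fails, basolateral export is known as an alternative exit, and the bile acid receptor FXR controls several of these genes.

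The 300-base promoter windows of 4 members are printed, chosen for the changes given below. Slc51b and Abcc4 are basolateral exporters that rose, and Slco1a1 and Abcb11 an uptake carrier and a canalicular pump that fell. They do not stand for their whole roles, since the basolateral exporter Abcc3 fell and Slco1a4 and Abcc2 did not pass the test. Each window runs from 250 bases before to 50 bases after a RefSeq start, on the minus strand of build GRCm38.p6, 5′ to 3′. The positions are chr9:65422724-65423023 for Slc51b, chr14:118706170-118706469 for the first of 2 Abcc4 windows, chr6:141946913-141947212 for Slco1a1 and chr2:69342567-69342866 for Abcb11. Capitals mark matches to the nuclear receptor monomer site AGGTCA or to the core of the antioxidant response element, TGACNNNGC, on either strand.
Slc51b: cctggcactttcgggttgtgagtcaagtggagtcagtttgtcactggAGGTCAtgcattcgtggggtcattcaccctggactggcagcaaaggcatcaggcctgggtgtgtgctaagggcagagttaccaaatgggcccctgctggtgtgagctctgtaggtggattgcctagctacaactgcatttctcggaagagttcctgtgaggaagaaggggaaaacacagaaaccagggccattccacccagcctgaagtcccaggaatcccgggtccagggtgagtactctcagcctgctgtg
Abcc4: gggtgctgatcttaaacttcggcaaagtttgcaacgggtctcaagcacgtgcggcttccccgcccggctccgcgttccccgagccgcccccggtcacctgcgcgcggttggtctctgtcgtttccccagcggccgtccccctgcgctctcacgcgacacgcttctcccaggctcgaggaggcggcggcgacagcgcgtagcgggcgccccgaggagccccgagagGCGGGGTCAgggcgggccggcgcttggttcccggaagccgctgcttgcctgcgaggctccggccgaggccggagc
Slco1a1: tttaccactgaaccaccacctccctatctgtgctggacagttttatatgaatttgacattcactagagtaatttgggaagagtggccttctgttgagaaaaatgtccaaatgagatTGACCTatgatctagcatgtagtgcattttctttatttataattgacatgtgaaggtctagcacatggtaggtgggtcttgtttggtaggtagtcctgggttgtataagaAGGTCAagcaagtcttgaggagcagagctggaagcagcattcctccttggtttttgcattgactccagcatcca
Abcb11: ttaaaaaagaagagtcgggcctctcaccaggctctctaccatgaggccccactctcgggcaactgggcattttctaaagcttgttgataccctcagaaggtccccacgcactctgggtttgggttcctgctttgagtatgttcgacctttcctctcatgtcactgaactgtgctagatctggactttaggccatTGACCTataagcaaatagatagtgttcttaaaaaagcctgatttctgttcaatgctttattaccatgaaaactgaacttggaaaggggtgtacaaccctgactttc

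The RefSeq table held 11 windows for 9 of the 10 members, and Abcc3 is only named. The monomer site lay in a window of 7 members, in Slc10a1, Slco1a1, Slco1b2, Abcb11, Abcc2, Slc51a and Slc51b. Of all 32851 RefSeq windows, 16.3% held it. The inverted repeat of that site with a 1-base gap (AGGTCANTGACCT), the classical FXR element, was in 0 of the 11 windows and in 3 of all windows. The antioxidant response element core was in both Abcc4 windows and in that of Abcc2, and in 12.4% of all windows. None of the printed matches overlapped another motif. A match describes letters and is not a measured site.

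Levels are given below as relative signals, the background-subtracted spot signal divided by the 75th percentile of its array, so that 1 equals the signal of that percentile. Values of one probe are compared between groups, not between probes. The summed signals of marker lists, given below, add different probes and so rest mostly on the brightest ones. Between 23592 and 29055 probes were well above background on the CFD diet arrays and between 21698 and 26279 on the control arrays, and the small number of arrays limits every value. Hepatocyte RNA was present in both groups: each of the 11 tested hepatocyte markers was well above background in both, as were all 9 tested transporters in the controls. CFD diet replicate 2 lay nearest to the control mean for 67.3% of the 8122 called genes with a value on every array, replicate 1 for 23.75% and replicate 3 for 8.96%. Each of 3 slides held 1 CFD diet and 1 control sample of the same replicate number.

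Of the 9 tested transporters, 7 differed between the diets, and the roles did not move alike. Uptake and canalicular genes that passed the test were lower on the CFD diet, and of the basolateral exporters 2 rose and 1 fell. By limma with Benjamini-Hochberg adjustment over all 15904 genes, at an adjusted p below 0.05, 2 transporters were higher, where 23.7% of all tested genes were, and 5 were lower, where 27.4% were. Counted in either direction, 7 of 9 passed, where 51.1% of all tested genes did. The 2 that rose had all CFD diet arrays above all controls, as did 28.4% of tested genes, and the 5 that fell had all of them below, as did 34.6%. The median log2 fold change was -2.61 over the 4 uptake carriers, -0.81 over the 2 canalicular pumps and 3.11 over the 3 tested basolateral exporters, against -0.11 over all tested genes. The basolateral median is the value of Abcc4 alone, between -1.15 for Abcc3 and 4.02 for Slc51b, so it describes no change shared by that role. All of these medians are descriptions of few genes and were not tested.

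**Figure D1:**
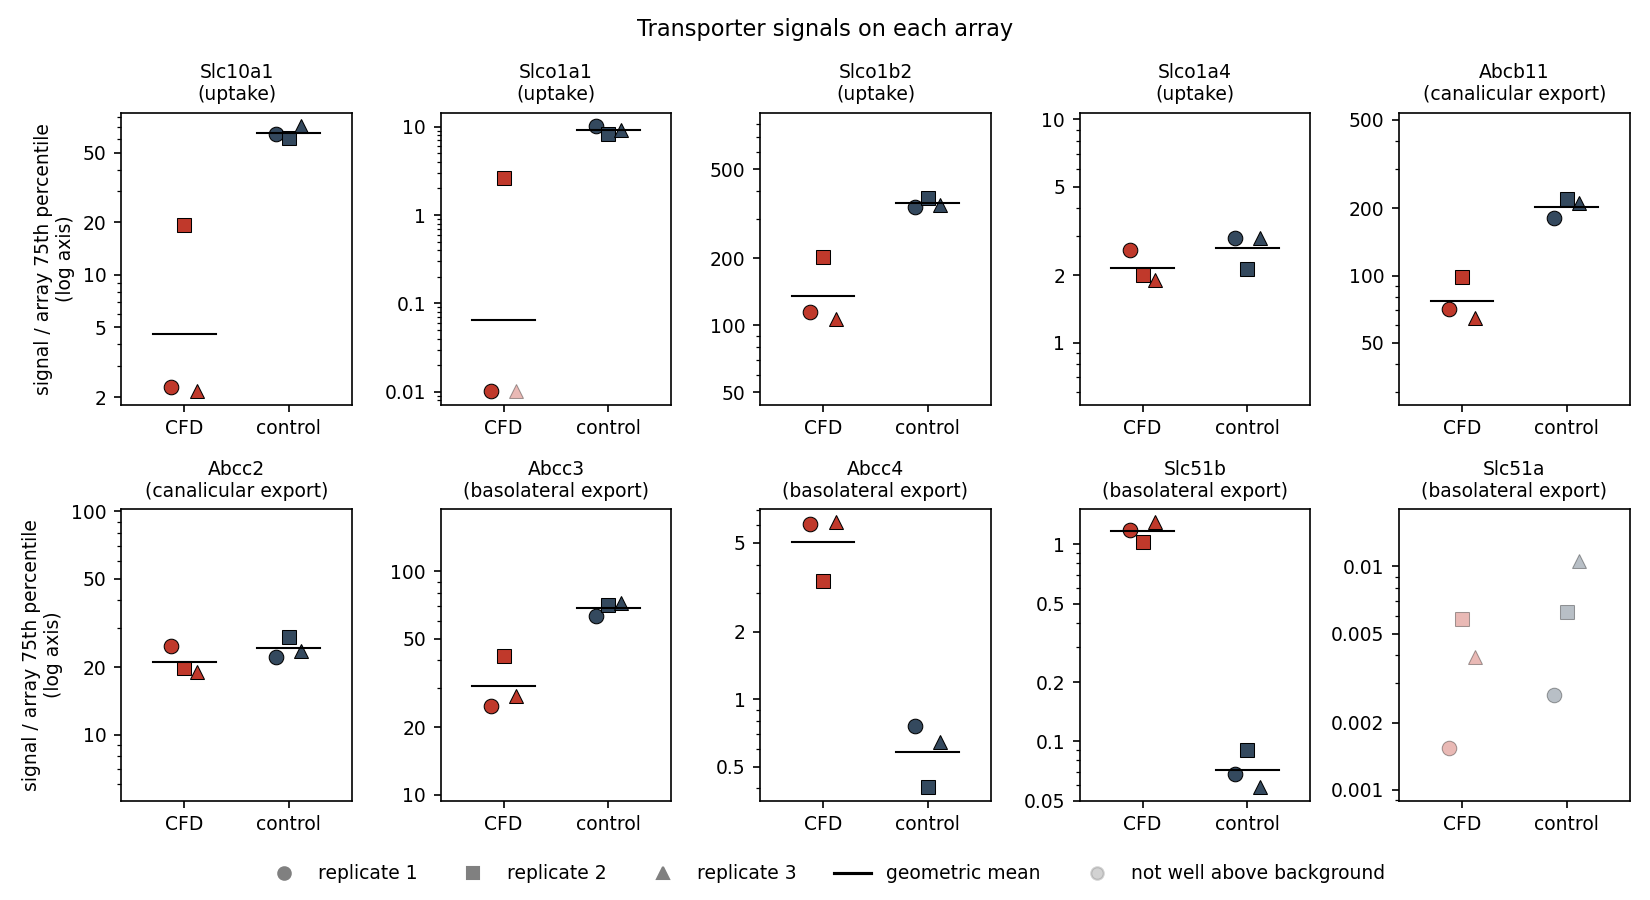
Relative signal (log axis, in units of the array's 75th percentile) of the 10 transporters on each CFD diet and control array; symbols mark replicates, pale symbols are not well above background, and lines are geometric means. Slc10a1 and Slco1a1 were far lower on CFD diet arrays 1 and 3 than on array 2, Abcc4 and Slc51b were higher on all CFD diet arrays, and the Slc51a panel (probe A_51_P253207) has no line because no array measured it.

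Slc10a1, the sodium-coupled bile acid carrier, had relative signals of 2.28, 19.2 and 2.15 in CFD diet replicates 1 to 3, against 63.9, 60.5 and 70.8 in control replicates 1 to 3. The groups did not overlap, and 2 of the 3 CFD diet samples kept 3.52% and 3.32% of the control mean while replicate 2 kept 29.6%. Slc10a1 was 14.3-fold lower on the CFD diet, a log2 fold change of -3.83 ± 0.81 (standard error, 3 arrays in each group, adjusted p by limma = 0.00829), and stood at rank 40 of 15904 from the most lowered gene. On the same slide, the log2 difference was -4.81, -1.65 and -5.04 for slides 1 to 3. Without CFD diet replicate 2 the log2 fold change was -4.87, and with the slide as a block the adjusted p by limma was 0.0145. In build mm7 its probe sits at chr12:78923269-78923328, on the minus strand.

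Slco1a1, the OATP1A1 carrier of organic anions and steroid conjugates and a male-biased gene of mouse liver, had relative signals of 0.0101, 2.65 and 0.0102 on the CFD diet, against 10.1, 8.18 and 9.07 in controls. Its signal was thus close to background in CFD diet replicates 1 and 3, while replicate 2 kept 29.2% of the control mean. CFD diet replicate 3 was not well above background, and replicate 1 passed that flag at a processed signal of 6.23, where the lowest signal to pass on that array was 4.24. The fitted log2 fold change was -7.13 ± 2.07 (adjusted p by limma = 0.0265). Since 2 of the CFD diet values were at or near background, its size is not exact, and with dim signals raised to the lowest one called well above background it was -6.86.

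A second Slco1a1 probe had relative signals of 0.00863, 1.39 and 0.00462 on the CFD diet, against 5.15, 5.17 and 4.59 in controls, and changed by -7.02 ± 2.00 (adjusted p by limma = 0.0247). Both probes therefore placed replicate 2 between the other CFD diet samples and the controls. The size of the Slco1a1 fall moved with replicate 2 and with the background correction. It was -9.81 without CFD diet replicate 2 (adjusted p by limma = 7.33e-05) and -4.47 with normexp background correction. The call ended when any other array was left out, at an adjusted p by limma of 0.0795 and 0.0878 without CFD diet replicates 1 and 3 and of 0.0648, 0.0637 and 0.0689 without control replicates 1 to 3.

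Slco1b2 (OATP1B2), the main hepatocyte carrier of unconjugated bile acids and of bilirubin and drugs in mice, had relative signals of 115, 203 and 106 on the CFD diet, against 339, 371 and 347 in controls. All CFD diet values lay below all controls, with replicate 2 nearest to them. It was 2.60-fold lower, at a log2 fold change of -1.38 ± 0.25 (adjusted p by limma = 0.00489). Slco1a4 (OATP1A4), a carrier of bile acids, steroid conjugates and cardiac glycosides, had relative signals of 2.59, 2.00 and 1.91 on the CFD diet, against 2.94, 2.14 and 2.94 in controls. The groups overlapped, and the log2 fold change of -0.30 ± 0.19 did not pass (adjusted p by limma = 0.223). Its 95% interval runs from 0.595 to 1.11 as a ratio of CFD diet to control, so a fall of the size seen for Slco1b2 lies outside it.

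Of these uptake genes, 3 share 1 stretch of chromosome 6, where their probes span 223 kb in build mm7. The Slco1b2 probe lies from 141738135 to 141738194, the Slco1a4 probe from 141858334 to 141858393 and the brighter Slco1a1 probe from 141961072 to 141961131. The neighbours differed in their changes, at log2 fold changes of -1.38, -0.30 and -7.13 in that order. The difference between the change of Slco1a1 and that of Slco1a4 was -6.83, in the same direction on every slide, and its size rests on Slco1a1 signals at or near background in CFD diet replicates 1 and 3. The difference between Slco1a4 and Slco1b2 was 1.08. Both gave an exact two-sided permutation p of 0.1 over the arrays, which is the smallest that 3 against 3 can give.

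**Figure D2:**
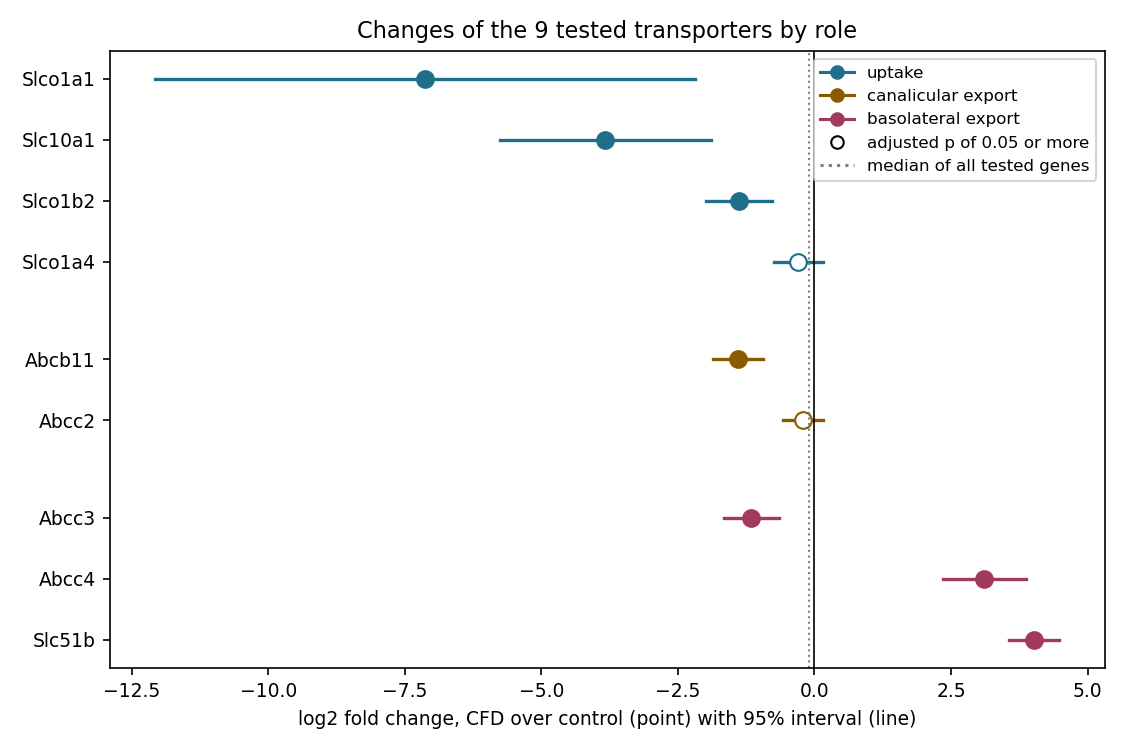
Log2 fold change, CFD diet over control, of the 9 tested transporters by role, with 95% intervals from limma (3 arrays in each group); open points did not pass, and the dotted line is the median of all tested genes, -0.11. Slc10a1 and Slco1a1 have the widest intervals, and Abcc4 and Slc51b lie at 3.11 and 4.02.

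Of the canalicular pumps, Abcb11 fell and Abcc2 did not pass the test. Abcb11, which encodes the bile salt export pump, had relative signals of 70.7, 98.9 and 64.3 on the CFD diet, against 180, 220 and 211 in controls. The groups were well separated, and Abcb11 was 2.65-fold lower at a log2 fold change of -1.41 ± 0.19 (adjusted p by limma = 0.00174). Abcc2, which exports bilirubin glucuronides and glutathione conjugates, had relative signals of 24.8, 19.8 and 19.0 on the CFD diet, against 22.2, 27.2 and 23.8 in controls. Those ranges overlapped, with a log2 fold change of -0.21 ± 0.15 (adjusted p by limma = 0.294) and a 95% interval of the ratio from 0.671 to 1.12. The interval does not reach the fall of Abcb11. The change of Abcb11 less that of Abcc2 was -1.20 (exact two-sided permutation p = 0.1, the smallest possible), and the ratio was lower on all 3 CFD diet arrays than on any control. In mm7 the Abcb11 probe sits at chr2:69168882-69168941 (minus strand) and the Abcc2 probe at chr19:43731462-43731521 (plus strand).

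The basolateral exporters split. Abcc4, which exports bile acids with glutathione, cyclic nucleotides and conjugated steroids, had relative signals of 6.07, 3.39 and 6.18 on the CFD diet, against 0.757, 0.404 and 0.647 in controls. Every CFD diet sample exceeded every control, and the rise was 8.63-fold, at a log2 fold change of 3.11 ± 0.32 (adjusted p by limma = 0.000614). In CFD diet replicate 2 the level was lower than in the other CFD diet samples, but so was that of its slide partner, and the log2 difference was 3.00, 3.07 and 3.26 on slides 1 to 3. The other Abcc4 probe, whose signals were lower, changed by 2.73 ± 0.39 (adjusted p by limma = 0.00216).

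Slc51b, the beta subunit of the heteromeric bile acid exporter, had relative signals of 1.18, 1.03 and 1.29 on the CFD diet, against 0.0685, 0.0908 and 0.0584 in controls. The CFD diet samples were tightly grouped, and all 6 arrays were well above background. Slc51b rose 16.3-fold, at a log2 fold change of 4.02 ± 0.19 (adjusted p by limma = 7e-05), with slide differences of 4.10, 3.50 and 4.47. With normexp, whose offset draws dim values together, the rise was 2.61.

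Slc51a, the alpha subunit that pairs with the Slc51b product, was not well above background on any of the 6 arrays with either of its 2 probes. Its processed signals were 0.947, 2.34 and 2.63 on the CFD diet with 1 probe and 1.41, 2.63 and 2.94 with the other, against 1.17, 2.28 and 4.24 and 1.34, 2.69 and 3.61 in controls. The lowest signals called well above background were 4.24, 11.02 and 11.98 on those CFD diet arrays and 5.36, 10.8 and 14.6 on the control arrays. No fold change is given for Slc51a, since both groups were below that level. In mm7 the Slc51a probes sit at chr16:32150075-32150134 and chr16:32150310-32150369 and the Slc51b probe at chr9:65442539-65442598, all on the minus strand.

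Abcc3, a basolateral exporter of glucuronides and bile acids, went the other way from Abcc4 and Slc51b. Its relative signals were 24.9, 41.7 and 27.8 on the CFD diet, against 63.0, 70.3 and 71.8 in controls, without overlap. Abcc3 was 2.23-fold lower, at a log2 fold change of -1.15 ± 0.21 (adjusted p by limma = 0.00474), and its dimmer second probe changed by -1.52 ± 0.18 (adjusted p by limma = 0.00112). The change of Abcc3 less that of Abcc4 was -4.26, and less that of Slc51b -5.18, each at an exact two-sided permutation p of 0.1. In mm7 the brighter Abcc3 probe sits at chr11:94452396-94452455 and the brighter Abcc4 probe at chr14:112885129-112885188, both on the minus strand.

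Over all 36 pairs of the 9 tested transporters, 31 gave an exact two-sided permutation p of 0.1, the smallest possible. After Benjamini-Hochberg adjustment over the pairs it was 0.116, so none can pass 0.05. The pairs reuse the same 9 genes, and a difference as small as -0.25, of Abcb11 less Abcc3, counts among the 31. Pairs of other genes were not counted, so the number cannot be read as a trait of these transporters. The other 5 pairs were Slc10a1 with Slco1a1 (p = 0.3 by the same exact test), Slco1b2 with Abcb11 (0.9), Slco1b2 with Abcc3 (0.2), Slco1a4 with Abcc2 (0.9) and Abcc4 with Slc51b (0.3). The changes of Slco1b2 and Abcb11 were 0.03 apart on the log2 scale, although the genes serve opposite faces of the cell.

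In each of the 7 called transporters, CFD diet replicate 2 was the CFD diet sample nearest to the control mean. That order also held for 67.3% of all called genes, so it is not particular to these transporters. For Abcc4 the control on slide 2 was low as well, and the log2 difference on slides 1 to 3 was 3.00, 3.07 and 3.26. The gap between replicate 2 and the next CFD diet sample was 3.07 on the log2 scale for Slc10a1, and between 0.20 and 0.84 for Slco1b2, Abcb11, Abcc3, Abcc4 and Slc51b. For Slco1a1 no gap is given, since replicates 1 and 3 were at or near background.

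**Figure D3:**
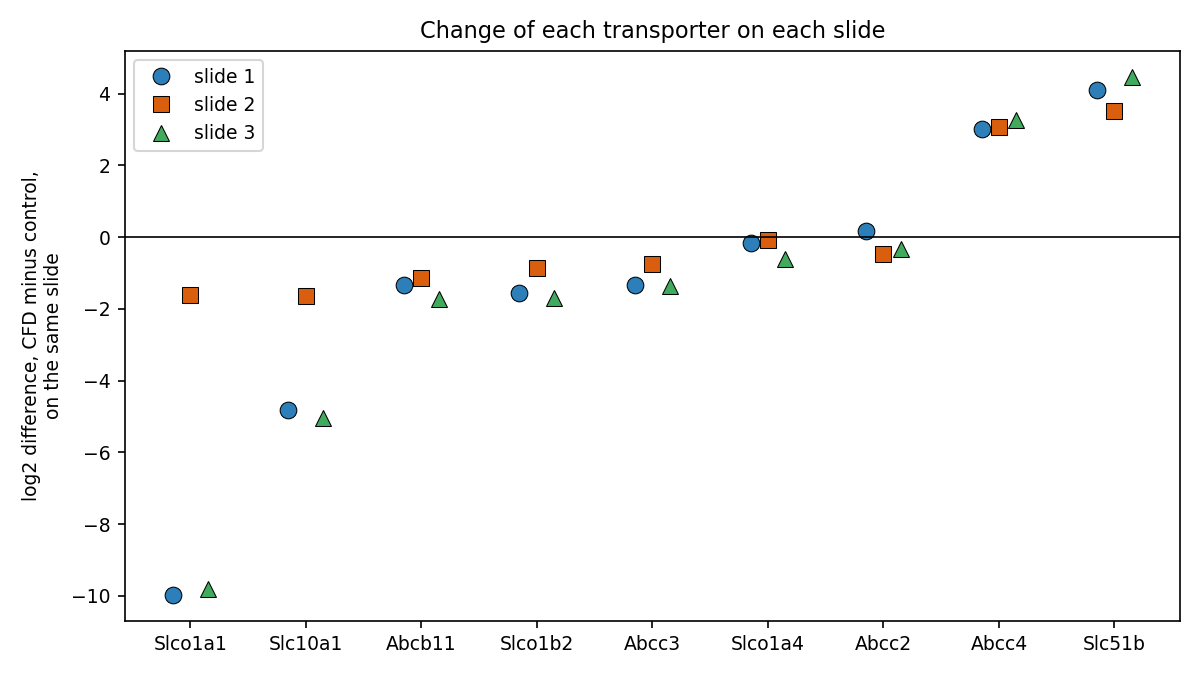
Log2 difference, CFD diet minus control, between the 2 samples on each slide, for the 9 tested transporters. Slide 2 stands apart for Slc10a1 and for Slco1a1 (-1.62), whose points for slides 1 and 3 rest on CFD diet signals at or near background and have no exact size, and the 3 slides nearly coincide for Abcc4.

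Genes with the pattern closest to that of Slco1a1 were named by Euclidean distance over the 6 arrays, on log2 values centred on the control mean. They were Hnf4aos, a non-coding transcript antisense to Hnf4a, at 1.67, the hydroxysteroid dehydrogenase gene Hsd3b5 at 2.03 and the unnamed transcript NAP025923-1 at 2.49. Hnf4aos and NAP025923-1 were well above background on 1 of 3 CFD diet arrays each, so these distances rest partly on background values and their order is not firm. On slide 2, NAP025923-1 was higher on the CFD diet, by 0.59 on the log2 scale. Hsd3b5 had relative signals of 0.127, 21.1 and 0.252 on the CFD diet, against 62.2, 76.4 and 57.5 in controls, again with replicate 2 highest of the CFD diet samples. Closest to Slc51b were Ttc39a at 0.20, the neutrophil gene S100a8 at 0.36 and Ypel1 at 0.46. S100a8 had relative signals of 1.61, 1.34 and 1.79 on the CFD diet, against 0.0949, 0.144 and 0.0949 in controls. Ypel1 was not well above background on any control array.

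Other transporters were compared from lists of related genes. Of 10 tested genes listed as other sinusoidal carriers and exporters, 3 were higher and 6 lower on the CFD diet. Their median log2 fold change was -0.71. The 6 lower include Slc10a2, at -0.98, whose product is an apical and not a sinusoidal bile acid carrier. The multidrug resistance proteins Abcc5 and Abcc1 rose by 2.36 ± 0.22 and 1.90 ± 0.25 (log2 fold change, adjusted p by limma = 0.000423 and 0.00163). The organic anion transporter gene Slc22a7 and Abcc6, whose product releases ATP from hepatocytes, changed by -2.44 ± 0.47 and -2.31 ± 0.37 (adjusted p by limma = 0.00619 and 0.00307). Of all tested genes, 23.7% were higher and 27.4% lower, so calls in both directions are not particular to this list. The counts of the lists below stand beside the same shares.

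Of 8 other canalicular transporters, of the ABC family or for lipids or copper, 1 was higher, 3 were lower and 4 did not pass. Their median log2 fold change was -0.20. Abcb1a, a drug efflux pump, rose by 2.21 ± 0.39 (adjusted p by limma = 0.00422), although only 1 control array was well above background. The rise was 0.68 with normexp and 1.77 with dim signals raised to the lowest one called well above background, so its size is not firm. The sterol transporter subunit gene Abcg8 and the copper pump gene Atp7b changed by -1.27 ± 0.23 and -0.97 ± 0.18 (adjusted p by limma = 0.00444 and 0.00565). Scaled to hepatocyte markers, Abcg8 was at -0.52 and Atp7b no longer passed, at -0.22 (adjusted p by limma = 0.443). Abcb4, the phosphatidylcholine flippase of the canaliculus, singled out once its values were known, had relative signals of 124, 127 and 130 on the CFD diet, against 126, 136 and 138 in controls. Its log2 fold change of -0.07 ± 0.11 did not pass (adjusted p by limma = 0.610), beside the 2.65-fold fall of Abcb11 at the same membrane.

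Regulators of transporter genes were mostly lower, 12 of 14 tested with 1 higher, at a median log2 fold change of -0.98. Keap1, counted among the 12 lower at -0.59, does not encode a transcription factor, and its product restrains the one encoded by Nfe2l2. Scaled to hepatocyte markers, a choice made after seeing the data, the number lower was 2. Under every other processing alternative it ran from 10 to 13. Nr1h4, which encodes FXR, had relative signals of 8.03, 16.3 and 9.08 on the CFD diet, against 28.0, 28.2 and 26.1 in controls, a log2 fold change of -1.37 ± 0.27 (adjusted p by limma = 0.00606). Nr0b2, which encodes the repressor SHP and is a known FXR target, changed by -1.39 ± 0.28 (adjusted p by limma = 0.00668). Nfe2l2, which encodes NRF2, a known activator of Abcc4 in mouse liver, rose by 0.45 ± 0.13 (adjusted p by limma = 0.0284). Its other probes gave 0.59, 0.43 and -0.13 and did not pass, and the call ended without CFD diet replicate 1 (0.0633) or 3 (0.0949) and without control replicate 2 (0.0901) or 3 (0.0889), all adjusted p by limma. It also ended with array median scaling, at a log2 fold change of 0.24 (adjusted p by limma = 0.244), and without the filter on dim probes (0.108).

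Genes of bile acid synthesis and conjugation fell with the uptake carriers, 9 of 10 lower and 0 higher, at a median log2 fold change of -1.81. Cyp8b1, the sterol 12-alpha-hydroxylase, had relative signals of 0.362, 2.92 and 0.203 on the CFD diet, against 10.02, 8.88 and 9.93 in controls, and Cyp7b1, of the alternative pathway, had 2.50, 30.9 and 4.47, against 76.1, 121 and 76.4. In both, CFD diet replicate 2 was again the sample nearest to the controls. Their log2 fold changes were -4.002 ± 0.91 and -3.66 ± 0.87 (adjusted p by limma = 0.0108 and 0.0127). Without CFD diet replicate 2 they were -5.15 and -4.73.

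Of 11 genes for proteins that anchor transporters or shape the junctions and apical membrane, 3 were higher, 5 were lower and 3 did not pass. The membrane-to-actin linkers Ezr and Msn rose by 1.94 ± 0.23 and 1.36 ± 0.21 (log2 fold change, adjusted p by limma = 0.000963 and 0.00298), whereas radixin (Rdx), the linker of hepatocyte canaliculi and likewise singled out afterwards, changed by -0.74 ± 0.14 (adjusted p by limma = 0.00524). Ceacam1, a canalicular adhesion protein gene, changed by -1.25 ± 0.39 and the scaffold gene Slc9a3r1 (NHERF1) by -1.02 ± 0.26 (adjusted p by limma = 0.0332 and 0.0163). The call of Ceacam1 ended without CFD diet replicate 2 (0.0876) or 3 (0.106) and without control replicate 2 (0.0801) or 3 (0.0646), and that of Slc9a3r1 without CFD diet replicate 3 (0.0538) or control replicate 3 (0.0604), all adjusted p by limma. Ceacam1 also lost its call with the slide as a replicate block (0.0533), with quantile normalization (0.0656), without the filter on dim probes (0.101) and scaled to hepatocyte markers (0.305). Slc9a3r1 also lost it without that filter (0.0613) and scaled to hepatocyte markers (0.278). The other Ceacam1 probes, at -1.60 and -1.41, passed. Scaled to hepatocyte markers, 0 of the 11 genes were called lower and 5 higher, so Rdx lost its call there too. Without the filter on dim probes, 1 of the 11 was called lower and 3 higher.

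**Figure D4:**
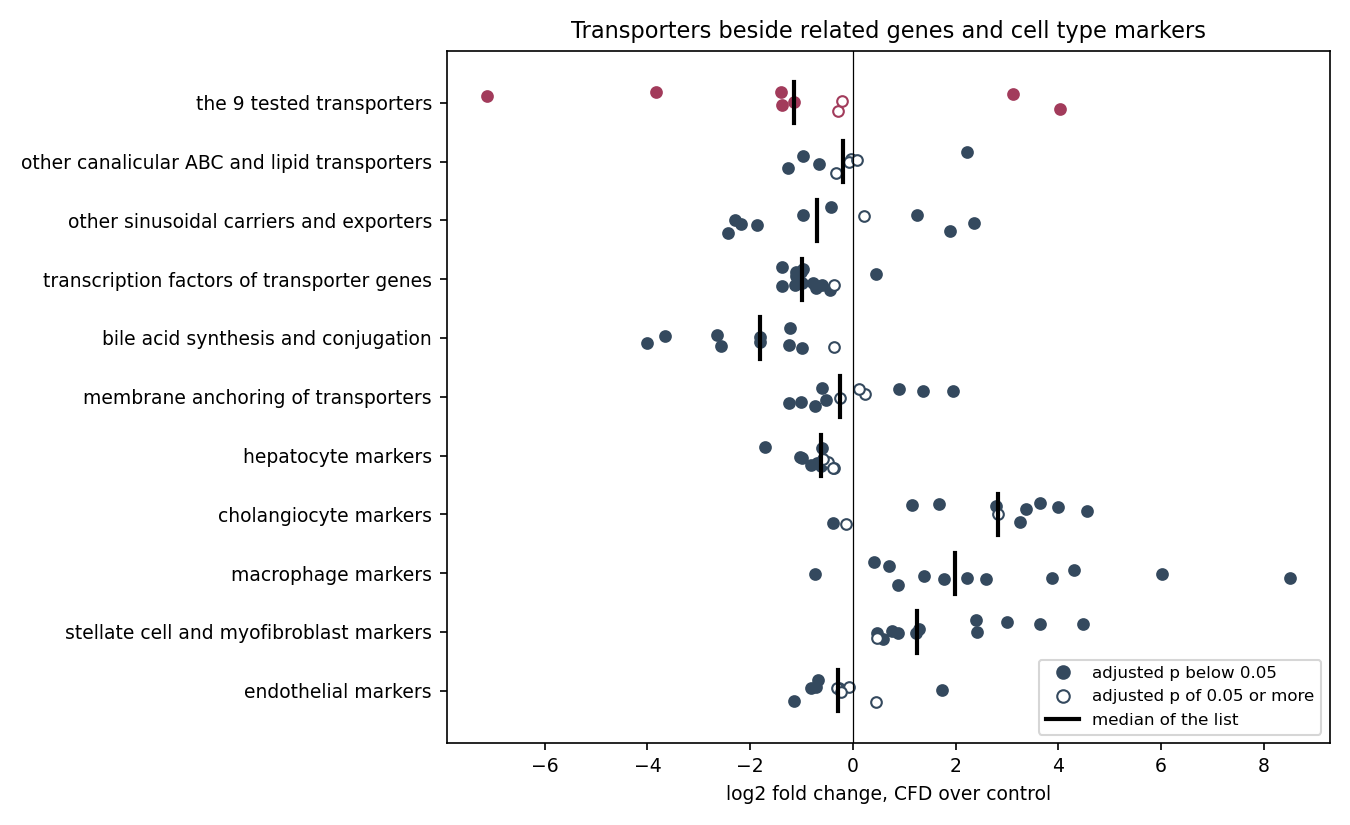
Log2 fold change, CFD diet over control, of the tested transporters, of related gene lists and of cell type markers; each point is a gene, filled points passed at an adjusted p below 0.05, and bars are list medians. The transporters span more of the axis than the hepatocyte markers, and the cholangiocyte, macrophage and stellate cell lists lie mostly above 0.

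Cell type markers also differed between the diets, in a direction that depended on the cell type. Hepatocyte markers were lower in 7 of 11 tested genes and higher in 0, with a median log2 fold change of -0.63 and a summed relative signal of 2062 to 3203 on the CFD diet, against 3338 to 4046 in controls. The number of hepatocyte markers called lower ran from 1 to 10 over the processing alternatives. In bulk liver, fewer hepatocytes and less RNA per hepatocyte cannot be told apart. Cholangiocyte markers were higher in 8 of 11 tested genes and lower in 1, with a summed relative signal of 91.4 to 126 on the CFD diet, against 9.81 to 12.8 in controls, most of it from Spp1, which macrophages also make. Cftr was not well above background on any control array. Bile duct cells also express Slc51b and Abcc3, and the part of these cells in the rise of Slc51b was not tested.

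Macrophage markers were higher in 11 of 12 tested genes and lower in 1, with a summed relative signal of 413 to 560 on the CFD diet, against 157 to 224 in controls. Stellate cell and myofibroblast markers were higher in 11 of 12 and lower in 0, at 57.3 to 75.95 on the CFD diet, against 19.1 to 21.4 in controls, and Lox was not well above background on any control array. Endothelial markers were higher in 1 of 10 and lower in 4, at 31.9 to 38.9 on the CFD diet, against 45.5 to 49.7 in controls. The part of these cells in the changes of Abcc4 and the other transporters was not tested.

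When each array was instead scaled to the mean of the 11 hepatocyte markers, a choice made after seeing the data, Slc10a1 and Slco1a1 still fell, by log2 fold changes of -3.08 and -6.38. Slco1b2 and Abcb11 were then lower by smaller amounts, at -0.63 and -0.65 (adjusted p by limma = 0.0172 and 0.00936). Abcc3 no longer passed, at -0.40 (adjusted p by limma = 0.0603), and Abcc4 and Slc51b rose by 3.86 and 4.78. Slco1a4 and Abcc2 turned to 0.45 and 0.54 without passing, and Abcc2 was also above 0 after quantile normalization, at 0.16. Under this scaling the median gene of the array shifted to 0.65 on the log2 scale.

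**Figure D5:**
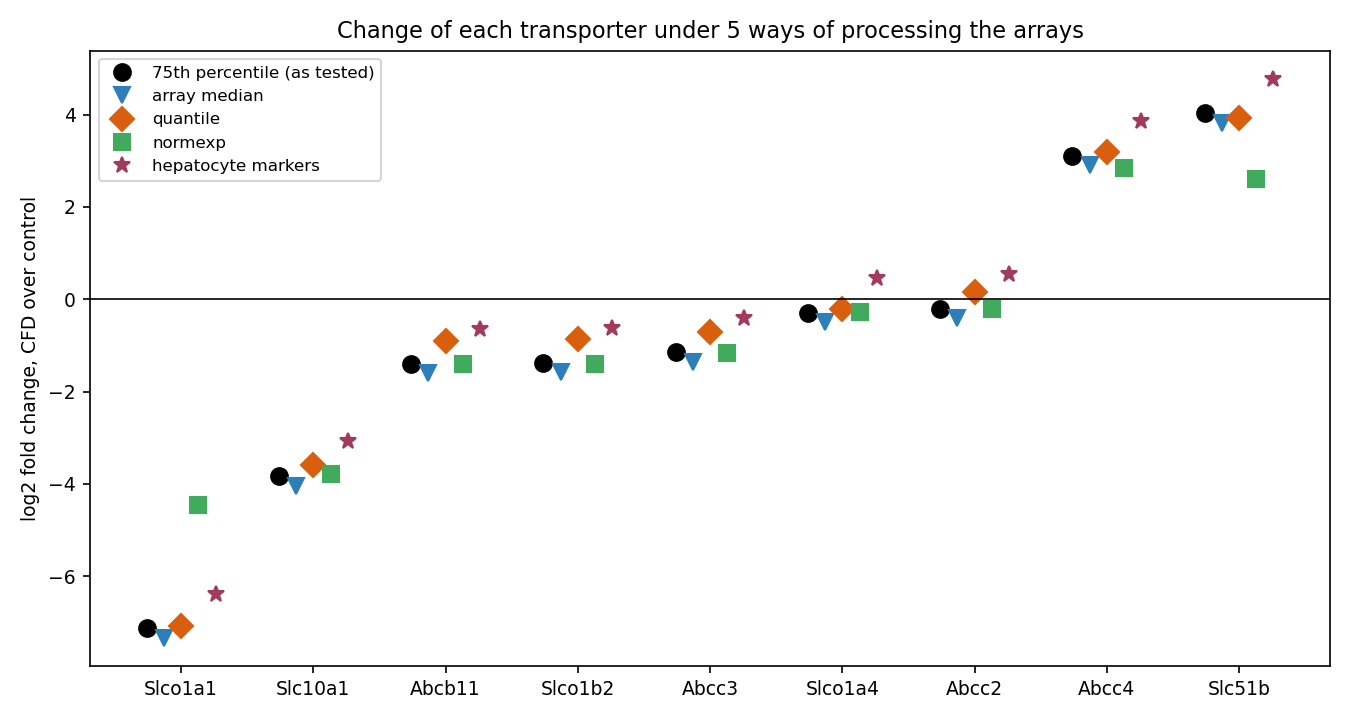
Log2 fold change, CFD diet over control, of each tested transporter under 5 ways of processing the arrays. Slc10a1, Slco1a1, Slco1b2, Abcb11 and Abcc3 stay below 0 and Abcc4 and Slc51b above 0 in all 5, while Slco1a4 and Abcc2 change side.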

How the data were processed

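The deposited scanner files hold the intensity of every spot, read by Agilent Feature Extraction 10.5.1.1 per the file headers (10.7 per the submitters' processing notes) and background-subtracted within each array. The deposited value table holds linear intensity values scaled by the authors to a 75th percentile near 1000, a step stated in none of the sources used here and seen in the values. In rank order every column matched a different replicate of its own group exactly (correlation 1), so replicates are numbered by the scanner files and the table served as an alternative.

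From these, control and outlier spots were left out, signals were divided by each array's 75th percentile and put on the log2 scale, with repeat spots averaged. Testing took in probes where the 3 arrays of either group all flagged them as well above background, and a gene was read from its brightest tested probe (15904 genes). Probe names were updated by accession and symbol through RefSeq. Diets were tested in R 4.3.3 by limma 3.58.1 (lmFit, eBayes, Benjamini-Hochberg), and pairs of transporters with an exact permutation test in scipy 1.17.1. The fit was tested on simulated data. Members, related lists and markers were chosen with earlier results of these data known. Named by rule are all members, the 2 called genes with the largest change per direction in each list of related genes (not the cell type markers), and the 3 genes nearest to Slco1a1 and to Slc51b. Abcb4, Rdx, Spp1, Cftr and Lox fall outside it and were chosen after their values were seen. Keap1 and Slc10a2 also fall outside the rule and are named because their products do not match the name of their list. Same-numbered samples share a slide by the array barcodes. Deviations from the group means of the 3 slide partners correlated across genes at 0.17, -0.07 and -0.01, so the slide was not in the model and was tried as a block.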

Additional observations from a re-analysis of the deposited data

How the results depend on the processing

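Over the alternatives (other background, scaling, filter, floor, moderation, probe and source choices, the slide as a replicate block, and each array left out; scaling to hepatocyte markers was chosen after seeing the data), 2 transporters were called higher in every one and 4 or 5 lower. Of 152 single-gene comparisons with these alternatives, 144 kept their side of the threshold and 8 lost the call, 7 of Slco1a1 and 1 of Abcc3. Slco1a1 kept -7.13 but lost the call without the filter on dim probes (adjusted p by limma = 0.0833) and with trend and robust moderation (0.0575), and was not tested among probes well above background on all arrays. Leaving out 1 array gave Slco1a1 -9.81 to -5.79. Scaled to hepatocyte markers, Abcc3 was at -0.40 (adjusted p by limma = 0.0603). With the slide as a replicate block no transporter changed its call, at adjusted p by limma of 0.0145 for Slc10a1, 0.0309 for Slco1a1 and 0.00144 for Slc51b. Within slides, the values furthest from the mean were on slide 2 for Slc10a1 (-1.65), Slco1a1 (-1.62), Slco1b2 (-0.87), Abcc3 (-0.75) and Slc51b (3.50), on slide 3 for Slco1a4 (-0.62), Abcb11 (-1.72) and Abcc4 (3.26), and on slide 1 for Abcc2 (0.16). The cause of these shifts was not tested.

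Over all genes, 3775 were higher and 4351 lower, against 2934 and 5812 after scaling to the array median (median log2 fold change -0.31), 8502 and 930 after scaling to hepatocyte markers, and 3041 and 2460 without the filter on dim probes. Genes called lower numbered 2844 without CFD diet replicate 3 and 2742 without control replicate 3. Over the alternatives, lower calls ran from 1 to 10 among hepatocyte markers and 2 to 13 among regulators of transporter genes. The 2 came from scaling to hepatocyte markers. Lower calls ran from 0 to 6 among anchoring genes, 0 to 6 among endothelial markers and 1 to 4 among other canalicular transporters. Higher calls ran from 4 to 9 among cholangiocyte markers, 3 to 5 among anchoring genes and 0 to 4 among other canalicular transporters. They ran from 0 to 2 among regulators of transporter genes and 1 to 3 among endothelial markers. After quantile normalization Abcb11 and Slco1b2 changed by -0.91 and -0.86. Signal over background limits Slco1a1 on the CFD diet and Slc51a in both groups.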
